A study of Mus musculus with 8 samples.

Results

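The regions described here are 435 stretches of mouse chromatin whose accessibility was higher in proNeu1 than in GMP-MoP, and higher in GMP-MoP than in cMoP, by a similar factor at each step. They are 435 of the 61196 regions counted, or 0.711%, and 1.82% of the 23881 regions with a proNeu1 mean of at least 10 counts per 1000000 (CPM). Members were selected on measured values: a proNeu1 mean of at least 10 CPM, a proNeu1 to GMP-MoP ratio from 1.5 to under 2.5, and a GMP-MoP to cMoP ratio in the same window, with the mean taken over 2 libraries. The height of proNeu1 over GMP-MoP and of GMP-MoP over cMoP is therefore how the regions were found and is no result. The proNeu2 libraries, the position of the regions and the DNA sequence took no part in the selection.

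Chromatin was profiled by ATAC-seq, in which the Tn5 transposase inserts into open DNA, in sorted mouse bone marrow progenitors of 4 groups, named proNeu2, proNeu1, GMP-MoP and cMoP, with 2 libraries in each group and 5000 cells in each tube. All groups share the tissue and the assay, and no treatment or mutation is given for any of them. Strain, age, sort gates and any pooling of animals were not stated in these sources. The labels call the libraries biological replicates without tying them to separate animals, so the p-values measure the spread between these libraries, which may be partly technical.

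Granulocytes and monocytes arise from shared bone marrow progenitors. The proNeu groups are named for early stages committed towards neutrophils, cMoP for the common monocyte progenitor, and GMP-MoP for a monocyte progenitor that comes from the granulocyte and monocyte branch. Neutrophil precursors build their granules in waves, with enzymes such as myeloperoxidase stored first and proteins such as lactoferrin and gelatinase later. Transcription factors of the C/EBP family, with GFI1, drive this programme, while IRF8, KLF4 and EGR proteins act in monocytes. Open regions away from gene starts often hold enhancers, where such factors bind.

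The region totals were 1785907 and 1631168 counts in the proNeu2 libraries, 1515953 and 1572001 in proNeu1, 1388525 and 1715928 in GMP-MoP, and 1907810 and 1896924 in cMoP. Marker lists separated the groups unevenly. Regions linked to later granule genes summed to 1694 to 1728 CPM in proNeu2, 1532 to 1557 in proNeu1, 887 to 971 in GMP-MoP and 805 to 893 in cMoP. Regions linked to monocyte and macrophage genes summed to 1643 to 1660 CPM in proNeu2, 1709 to 1723 in proNeu1, 2005 to 2088 in GMP-MoP and 2328 to 2374 in cMoP. Those of primary granule genes overlapped between proNeu2, proNeu1 and GMP-MoP, at 1262 to 1265 CPM in proNeu2, 1146 to 1270 in proNeu1, 1126 to 1284 in GMP-MoP and 1010 to 1071 in cMoP. Those of granulocyte factor genes summed to 4416 to 4551 CPM in proNeu2, 4306 to 4484 in proNeu1, 4124 to 4169 in GMP-MoP and 4057 to 4155 in cMoP. Regions of housekeeping genes also rose, from 1328 to 1393 CPM in cMoP to 1874 to 1926 in proNeu2. Those of cell cycle genes went from 2633 to 2663 CPM in cMoP to 3051 to 3052 in proNeu2. A higher sum in proNeu2 than in cMoP was therefore not particular to the granule and granulocyte factor lists. In bulk samples, a smaller share of cells with an open region and a weaker opening in every cell cannot be told apart.

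Of the members, 47 (10.8%) lay within 1 kb of an end of a protein-coding gene, 220 (50.6%) in a gene body and 168 (38.6%) outside genes. Over the 23881 regions of at least 10 CPM in proNeu1 the shares were 41.4%, 31.9% and 26.7%, and over all 61196 regions they were 21.1%, 41.6% and 37.3%. The members' share at gene ends was below that of either set. The 803 regions that meet the mirror rule, with cMoP highest and proNeu1 lowest, had 7.97% at gene ends, 48.3% in gene bodies and 43.7% outside genes, so their layout was much like that of the members. These shares are descriptions with no test. The members were 509 to 2762 bp wide with a median of 999 bp, against 832 bp over all regions and 1181 bp over those of at least 10 CPM.

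**Figure D1:**
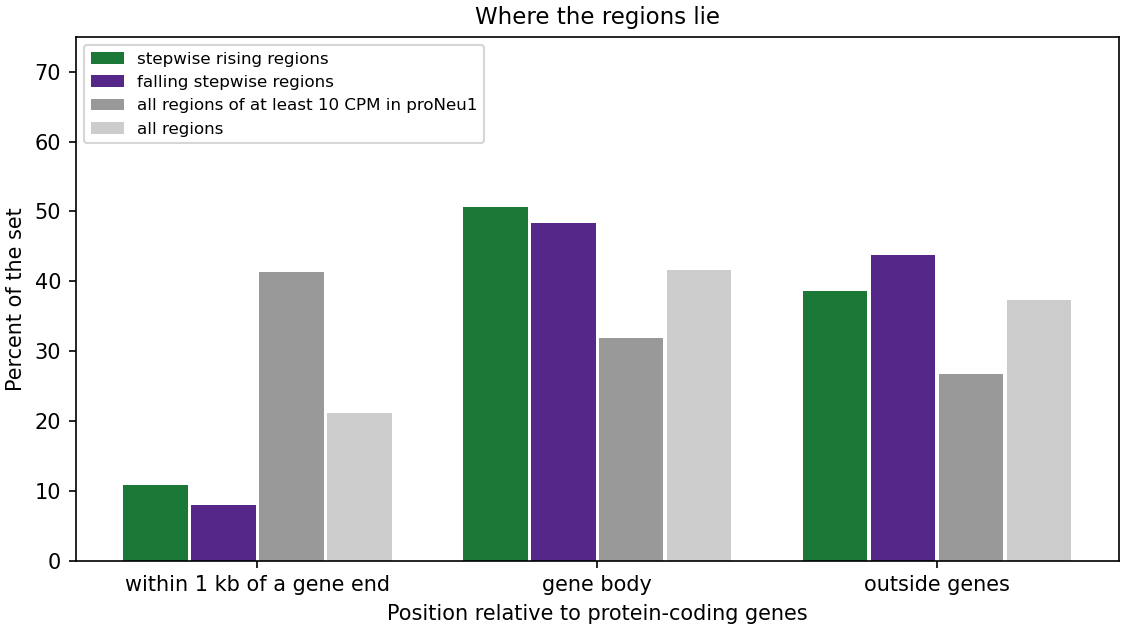
Percent of regions (bars, from 0) by position relative to protein-coding genes, for the 435 stepwise rising regions, the 803 stepwise falling regions, the 23881 regions of at least 10 CPM in proNeu1 and all 61196 regions. At gene ends the rising regions stood at 10.8% and those of at least 10 CPM at 41.4%.

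For 392 members (90.1%) a protein-coding gene lay within 50 kb, and these regions were linked to 376 different genes, while 43 had no gene that near. Nearness alone leaves the target gene of a region unknown. Members were spread thinly: 13 genes had 2 or more. Tnrc6b, whose protein joins Argonaute in microRNA silencing, had 4 members among its 9 linked regions. Usp7, a ubiquitin protease gene, had 3 of 9, and Ncam1, a cell adhesion gene, 2 of 4. Sgms2, of sphingomyelin synthesis, had 2 of 15, Trib1 had 2 of 5, and Dock5, an activator of Rac, 2 of 22. Within 20 kb of each other lay 19 pairs of neighbouring members. The closest pairs were 603 bp apart at Mogat2, a gene of diacylglycerol synthesis, 678 bp apart near Usp7 and 770 bp apart at Ccm2l.

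The few members over annotated starts allow their DNA to be read. Promoter windows of the RefSeq annotation (GRCm38.p6, the assembly behind mm10), each from 250 bases before to 50 after an annotated start, overlapped 27 genes' members in 36 windows. Such a start can lie inside a gene, as at Cd63, Tmem40 and Tnrc6b, whose members with a window were in the gene body. The median GC content of the 36 windows was 59.2%, against 62% in the 10157 windows under regions of at least 10 CPM in proNeu1 and 56.3% in all 21262. Windows of 5 genes are shown, all on the coding strand. Cd63 and Pglyrp1 are the later granule genes with a window under a member. Nedd4, Pilrb1 and Oas1c were chosen after their motifs were seen, as examples with C/EBP and IRF letters. Capitals mark each match, on either strand, to any of the 15 short motifs searched, and matches may overlap.
Cd63, chr10:128909095-128909394, plus strand: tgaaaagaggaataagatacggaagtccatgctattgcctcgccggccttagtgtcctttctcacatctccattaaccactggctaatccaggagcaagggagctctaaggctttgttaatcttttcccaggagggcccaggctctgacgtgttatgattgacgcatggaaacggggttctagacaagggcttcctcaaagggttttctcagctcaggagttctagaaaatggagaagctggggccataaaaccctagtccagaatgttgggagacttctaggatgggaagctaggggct
Pglyrp1, chr7:18884440-18884739, plus strand: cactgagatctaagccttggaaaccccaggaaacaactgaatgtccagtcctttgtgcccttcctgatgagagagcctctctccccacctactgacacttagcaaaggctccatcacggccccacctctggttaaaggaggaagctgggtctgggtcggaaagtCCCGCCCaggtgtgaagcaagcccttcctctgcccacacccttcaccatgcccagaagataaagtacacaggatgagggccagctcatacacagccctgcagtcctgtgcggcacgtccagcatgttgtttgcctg
Nedd4, chr9:72662081-72662380, plus strand: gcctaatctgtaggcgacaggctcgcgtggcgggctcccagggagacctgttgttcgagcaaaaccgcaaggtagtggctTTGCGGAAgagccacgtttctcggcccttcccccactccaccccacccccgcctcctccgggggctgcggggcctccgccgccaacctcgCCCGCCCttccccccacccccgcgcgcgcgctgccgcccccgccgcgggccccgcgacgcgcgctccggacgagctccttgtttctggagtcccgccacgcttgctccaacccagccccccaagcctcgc
Pilrb1, chr5:137858000-137858299, minus strand: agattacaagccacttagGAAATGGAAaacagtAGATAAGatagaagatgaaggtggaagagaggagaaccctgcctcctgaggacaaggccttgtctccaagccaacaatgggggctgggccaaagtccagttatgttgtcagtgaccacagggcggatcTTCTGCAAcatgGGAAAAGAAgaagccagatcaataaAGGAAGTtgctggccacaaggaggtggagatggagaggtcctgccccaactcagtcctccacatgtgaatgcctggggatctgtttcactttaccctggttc
Oas1c, chr5:120812465-120812764, minus strand: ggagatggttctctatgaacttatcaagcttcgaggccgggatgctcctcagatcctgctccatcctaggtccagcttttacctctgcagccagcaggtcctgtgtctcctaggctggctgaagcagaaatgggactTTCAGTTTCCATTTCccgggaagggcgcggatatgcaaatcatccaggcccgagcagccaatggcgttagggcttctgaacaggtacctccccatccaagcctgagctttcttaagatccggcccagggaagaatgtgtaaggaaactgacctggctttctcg

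The window of Cd63, which the member overlaps only at its downstream end, held no motif searched. The Pglyrp1 window held 1 GC box (GGGCGGG, here read on the opposite strand), the element of KLF and SP factors. In Nedd4, a ubiquitin ligase gene, 8 letters matched both C/EBP motifs searched, TTGCNNAA and TTNCGNAA, and a GC box followed. The Pilrb1 window, of a myeloid immunoglobulin-like receptor gene, matched the PU.1 core AGGAAGT, the first C/EBP motif, the GATA motif AGATAAG, the IRF motif GAAANNGAA and the ETS-IRF composite GGAANNGAA. Oas1c, of the interferon-induced oligoadenylate synthetase family, held 2 overlapping IRF motifs.

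Across the 36 member windows, the IRF motif was found in 7 (19.4%, at 6 genes), against 6.71% of windows under regions of at least 10 CPM and 8.14% of all windows. The AP-1 motif TGANTCA was found in 5 (13.9%), against 3.94% and 6.99%. The ETS motif CCGGAAG was found in 2 (5.56%), against 20.9% and 11.6%. The PU.1 core was found in 2 (5.56%), against 9.01% and 9.07%, and of the C/EBP motifs TTGCNNAA in 3 (8.33%), against 7.90% and 10.2%, and TTNCGNAA in 3 (8.33%, at 2 genes), against 4.36% and 2.85%. GC boxes were found in 14 (38.9%), against 51.4% and 33.9%, and the RUNX motif TGTGGTT in 0, against 3.52% and 4.71%. The ETS-IRF composite was found only in the Pilrb1 window (2.78%), against 7.04% and 7.77%. The GATA motif was also found only there (2.78%), against 1.48% and 2.64%. With 36 windows, several from the same gene, these shares are descriptions, and they concern only the few members at annotated starts, some of them inside genes.

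In the libraries that chose them, the members' median level was 17.2 and 16.5 CPM in proNeu1, 9.36 and 9.32 CPM in GMP-MoP, and 5.24 and 5.27 CPM in cMoP. The proNeu2 libraries, which took no part, had medians of 19.6 and 19 CPM. In counts the medians were 35 and 31 in proNeu2, 26 and 26 in proNeu1, 13 and 16 in GMP-MoP, and 10 and 10 in cMoP, so a single member rested on few reads. All members together held 0.989% and 0.992% of the counts in proNeu2, 0.883% and 0.924% in proNeu1, 0.495% and 0.506% in GMP-MoP, and 0.277% and 0.272% in cMoP. Replicate libraries lay close together in these totals, while the groups did not overlap.

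**Figure D2:**
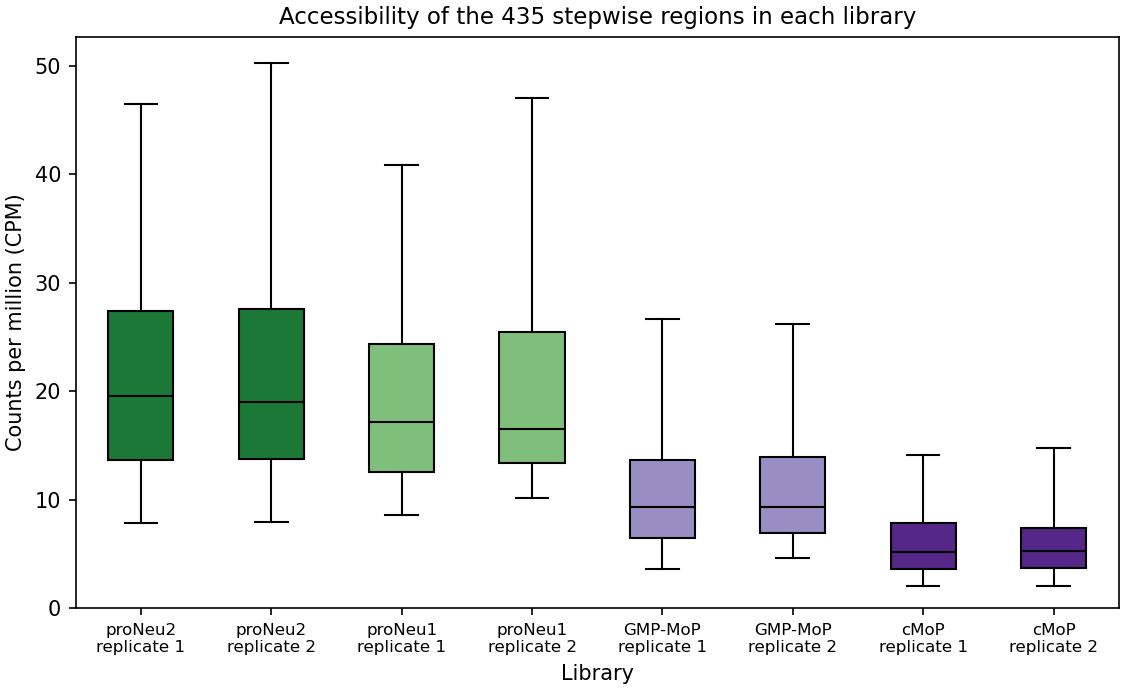
Accessibility (CPM, linear axis from 0) of the 435 regions in each of the 8 libraries. Boxes span the quartiles with the median as a line, and whiskers reach the 5th and 95th percentiles. The proNeu2 boxes, at medians of 19.6 and 19 CPM, stand slightly above those of proNeu1, at 17.2 and 16.5 CPM.

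The members' proNeu1 to GMP-MoP ratio had a median of 1.81, as did the GMP-MoP to cMoP ratio, and proNeu1 over cMoP ran from 2.29 to 5.88 with a median of 3.36. Membership turned on small differences at the thresholds. The member of lowest level, near Olfr461, had a proNeu1 mean of 10.001 CPM, and the nearest region outside, at Myo1d, had 9.98 CPM. The GMP-MoP to cMoP ratio was 1.5007 at Mrap inside and 1.4998 at Nbeal2 outside, and at the upper bound 2.496 at Faim2 inside and 2.503 at Paox outside. The proNeu1 to GMP-MoP ratio was 1.5009 at Ppt2 inside and 1.4997 at Mgst2 outside, and at the upper bound 2.488 at Kdm2b inside and 2.50003 at Man2b2 outside.

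Counting error alone is wide at this depth. The exact 95% interval of the proNeu1 to GMP-MoP ratio lay above 1 for 345 members and held 1 for 90, and it lay wholly inside the window of 1.5 to 2.5 for 2. For GMP-MoP over cMoP it lay above 1 for 202 members, held 1 for 233, and lay inside the window for 0. Both intervals lay above 1 for 179 members. These intervals cover counting error only. The libraries of the 3 groups ran in the order proNeu1, GMP-MoP, cMoP without overlap at 351 members, where 6.25% of all 61196 regions did so. In edgeR's quasi-likelihood test with Benjamini-Hochberg adjustment, 288 of 435 members were called higher in proNeu1 than in GMP-MoP (12.5% of all 47506 tested regions), 435 higher in proNeu1 than in cMoP (20.6%), and 42 higher in GMP-MoP than in cMoP (1.98%). The selection used these contrasts, so the counts only describe it. The DESeq2 Wald test called 1072 of all 47506 tested regions higher in proNeu1 than in GMP-MoP, and 33 higher in GMP-MoP than in cMoP. Calls over all tested regions were also fewer without 1 library of a compared group. Among members the DESeq2 counts for proNeu1 over GMP-MoP and GMP-MoP over cMoP were 27 and 1. Leaving out any 1 library of a compared group also lowered the edgeR counts of 288 and 42 members.

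Whether the stepwise order held in libraries that did not choose the regions was read by applying the same thresholds to replicate 1 alone and then looking at replicate 2, and the other way round. Of 419 regions chosen on replicate 1, 281 (67.1%) were in the order proNeu1, GMP-MoP, cMoP in replicate 2, against 33.4% of the 23255 regions of at least 10 CPM in proNeu1 replicate 1. Of 506 chosen on replicate 2, 330 (65.2%) were in that order in replicate 1, against 32.0% of 24272 regions. The order was thus met about as often in either direction, and by a larger share than in all regions of that level. The exact window was met again by 59 of the 419 regions (14.1%) and by 59 of the 506 (11.7%).

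The steps were smaller in libraries that did not choose the regions. For regions chosen on replicate 1, the median proNeu1 to GMP-MoP ratio was 1.59 in replicate 2 and 1.80 in the choosing libraries, and the GMP-MoP to cMoP ratio 1.58 and 1.77. For regions chosen on replicate 2, these medians were 1.54 in replicate 1 and 1.77 in the choosing libraries, and 1.4 and 1.77. The proNeu2 to proNeu1 ratio, read in the replicate not used, had medians of 1.12 and 1.17, against 1.008 and 1.01 over all regions of at least 10 CPM. Of the 435 members, 141 were among the regions chosen on replicate 1 and 150 among those chosen on replicate 2.

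**Figure D3:**
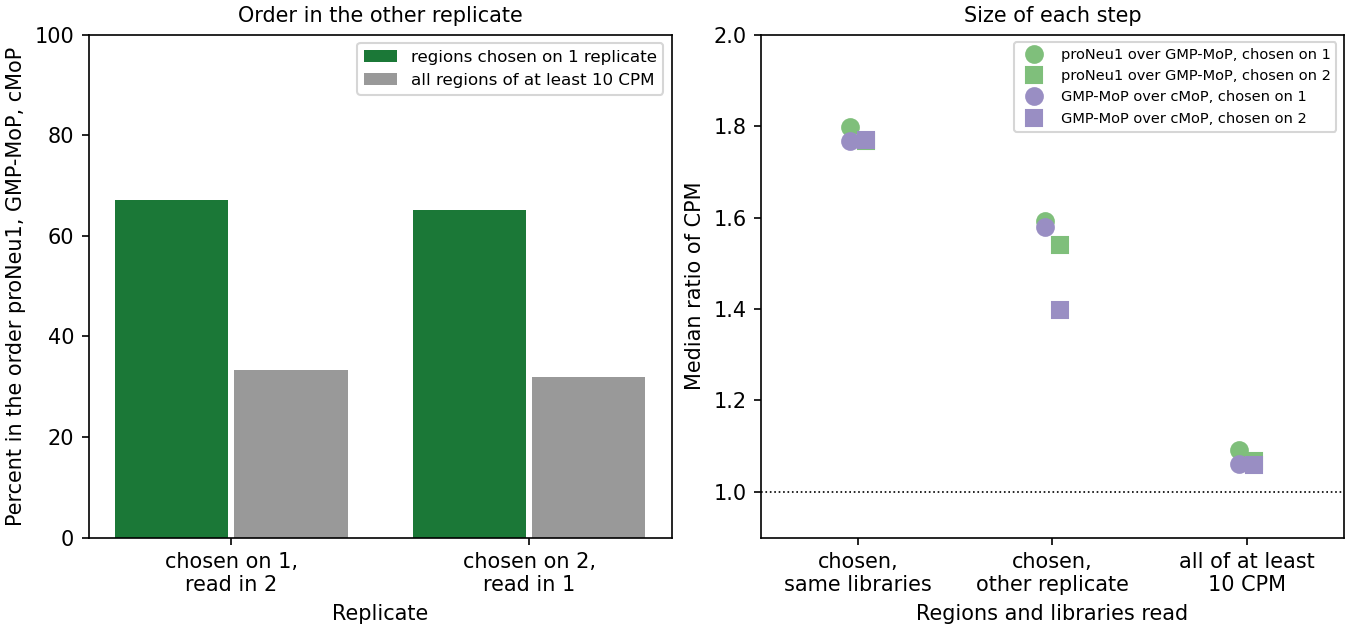
Left, percent of regions (bars, from 0) in the order proNeu1, GMP-MoP, cMoP in the replicate not used to choose them, for chosen regions and for all regions of at least 10 CPM. Right, median CPM ratio at each step (axis from 0.9) in the choosing libraries, in the other replicate and over all such regions, with the dotted line at a ratio of 1. The order was met by 67.1% and 65.2% of chosen regions, and each step was smaller in the other replicate.

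In proNeu2 the members stood about as high as in proNeu1. The proNeu2 to proNeu1 ratio ran from 0.357 to 2.07 with a median of 1.08, a median log2 of 0.114, against -0.0101 over the 23881 regions of at least 10 CPM. The proNeu2 mean was above the proNeu1 mean at 281 members (64.6%), against 48.5% of those 23881 regions. It lay between the GMP-MoP and proNeu1 means at 145 members, and at or below GMP-MoP at 9, of which 1 was also at or below cMoP. The falling regions, selected on the opposite order, had a median log2 of -0.290. The proNeu1 libraries had also chosen the regions, and the size and sign of the median moved with them. Selected without proNeu1 replicate 1 the median log2 was -0.0437, without proNeu1 replicate 2 it was 0.0408, and with the libraries of replicate 2 alone -0.0272, where the choosing proNeu1 library was also the one read. Read in the replicate that did not choose the regions, the median log2 was 0.159 for regions chosen on replicate 1 and 0.228 for those chosen on replicate 2, against 0.0108 and 0.0176 over all regions of at least 10 CPM.

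No single member was called between proNeu2 and proNeu1. By edgeR's quasi-likelihood test with Benjamini-Hochberg adjustment, 0 of 435 were higher in proNeu2 and 0 lower, where 0.00842% and 0.0674% of all tested regions were called. DESeq2 also called 0 members in either direction, and of all 47506 tested regions it called 0 higher and 1 lower. At an unadjusted edgeR p under 0.05, 39 of 435 members were higher and 9 lower. Of the 23881 regions of at least 10 CPM in proNeu1, 1068 were higher and 1209 lower at that threshold. The lowest edgeR adjusted p of a member was 0.118. Both proNeu2 libraries lay above both proNeu1 libraries at 136 members (16.5% of all regions did so), and both proNeu1 libraries above both proNeu2 libraries at 51 (22.9% of all regions). The exact counting interval of the ratio, computed for members only, held 1 at 377 members, lay above 1 at 44 and below 1 at 14. These counts do not show that the groups are alike: the median interval ran from 0.759 to 1.57.

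**Figure D4:**
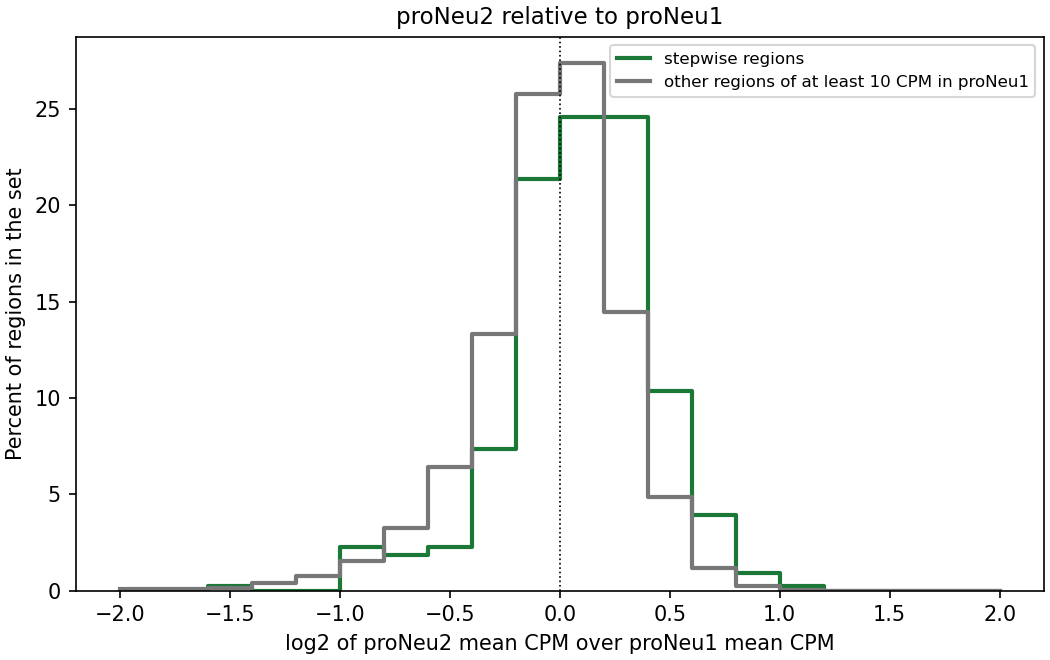
Distribution of log2 of the proNeu2 mean over the proNeu1 mean (bins of 0.2, percent of each set) for the 435 stepwise regions and the other regions of at least 10 CPM in proNeu1. The stepwise regions lie to the right by a little, at a median log2 of 0.114.

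The members furthest apart between proNeu2 and proNeu1, chosen after their values were seen, show how wide the spread was. The region at Plekhg3 had 25.8 and 27.6 CPM in proNeu2, 9.89 and 15.9 in proNeu1, 10.1 and 5.24 in GMP-MoP, and 5.24 and 3.69 in cMoP. Both proNeu2 libraries were above both proNeu1 libraries, with a log2 change of 1.06 (SE 0.292) and an adjusted p of 0.118 in edgeR's quasi-likelihood test. The region at Slc25a17, a peroxisomal carrier gene, had 2.80 and 6.13 CPM in proNeu2 and 6.60 and 18.5 in proNeu1, with a log2 change of -1.49 (SE 0.442, edgeR adjusted p = 0.169). The 2 proNeu1 libraries differed from each other there by more than the lower one did from proNeu2.

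Against the monocyte progenitor groups, proNeu2 was higher at most members. The proNeu2 to GMP-MoP ratio had a median of 1.97, against 1.1 over the 23881 regions, lay from 1.5 to under 2.5 at 287 members and was 2.5 or more at 84. Both proNeu2 libraries were above both GMP-MoP libraries at 391 members, where 24.2% of all regions were. EdgeR's quasi-likelihood test with Benjamini-Hochberg adjustment called 338 of 435 higher in proNeu2 than in GMP-MoP (19.2% of tested regions) and 424 higher than in cMoP (25.2%). DESeq2 called 147 (7.67% of tested regions) and 383 (13.9%). The fitted log2 changes ran from -0.67 to 2.36 against GMP-MoP, with a median of 1.11, and from -0.09 to 3.31 against cMoP, with a median of 1.93. The GMP-MoP and cMoP libraries chose the members as low, which sets part of this direction, so the counts are no independent evidence of it.

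Calls followed the level. Of the 145 members of highest proNeu1 level (21.2 to 94.5 CPM), 130 were called higher in proNeu2 than in GMP-MoP, of the next 145 (13.9 to 21.1 CPM) 122, and of the lowest 145 (10.001 to 13.9 CPM) 86, by edgeR's adjusted p. Over all tested regions, of any level, 19.2% were called. The shares of all regions in these level classes were not read, so the trend cannot be said to be particular to members. The median log2 of proNeu2 over proNeu1 was 0.132, 0.132 and 0.0441 in the same classes of members.

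The strongest member lay in the body of Dock9, which activates the GTPase Cdc42 (mm10 chr14:121731364-121732584). It had 101 and 115 CPM in proNeu2, 88.4 and 101 in proNeu1, 57.6 and 64.1 in GMP-MoP, and 39.3 and 34.3 in cMoP. The proNeu libraries lay above all others, and proNeu2 was higher than GMP-MoP by a log2 of 0.95 (SE 0.155, edgeR adjusted p = 1.04e-07). The region near Gatm, an enzyme of creatine synthesis (chr2:122560614-122562983), had 96.9 and 92.0 CPM in proNeu2, 74.5 and 71.2 in proNeu1, 42.5 and 38.5 in GMP-MoP, and 15.2 and 17.4 in cMoP. Here all groups stood apart, with proNeu2 over GMP-MoP at a log2 of 1.36 (SE 0.172, edgeR adjusted p = 9.59e-12).

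The other 8 of the 10 strongest members lay at or near Ncam1, Mroh2a, Tmem40, Ccno, Cdk12, Cd63, Casz1 and Pdzd8, with proNeu1 means of 61.2 to 89.5 CPM. Ccno encodes a cyclin-like protein of ciliated cells, Cdk12 a kinase of RNA polymerase II, Casz1 a zinc finger transcription factor, and Pdzd8 a tether of the endoplasmic reticulum. At Ncam1 (chr9:49796629-49799390, the widest member) the values were 86.8 and 85.8 CPM in proNeu2, 80.5 and 98.6 in proNeu1, 44.7 and 49.0 in GMP-MoP, and 27.3 and 24.8 in cMoP. All 10 were called higher in proNeu2 than in GMP-MoP by edgeR's adjusted p, with log2 changes of 0.75 at Cdk12 to 1.53 at Tmem40. The same call was made at 130 of the 145 members of highest proNeu1 level and at 19.2% of all tested regions. The call at Cdk12 (edgeR adjusted p = 0.000274) was lost without proNeu2 replicate 1 (0.0737).

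Of 378 genes in 17 lists of myeloid and other cell functions, 15 had a member, 16 regions in all. The 15 genes are 4.23% of the 355 listed genes with a linked region, against 2.41% of all 15578 linked genes, and the 16 are 0.892% of the lists' 1794 regions, against 0.711% of all regions. Of the 16 members, 15 had both proNeu2 libraries above both GMP-MoP libraries, 14 were called higher in proNeu2 than in GMP-MoP by edgeR's adjusted p and 8 by DESeq2, and 9 kept the edgeR call without each library in turn. Over all 435 members, both proNeu2 libraries lay above both GMP-MoP libraries at 391, edgeR called 338 and DESeq2 147. Of all regions 24.2% had that order, and of tested regions edgeR called 19.2% and DESeq2 7.67%. The rule chose GMP-MoP as low, which sets part of this direction in listed and other members alike. No member was linked to the lists of oxidase, adhesion and motility, dendritic cell, B cell, erythroid and megakaryocyte, mast, basophil and eosinophil, cell cycle or housekeeping genes. These lists held 33 to 216 regions each, so with 0.711% of all regions being members, few or none would be found in most of them at the overall share.

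**Figure D5:**
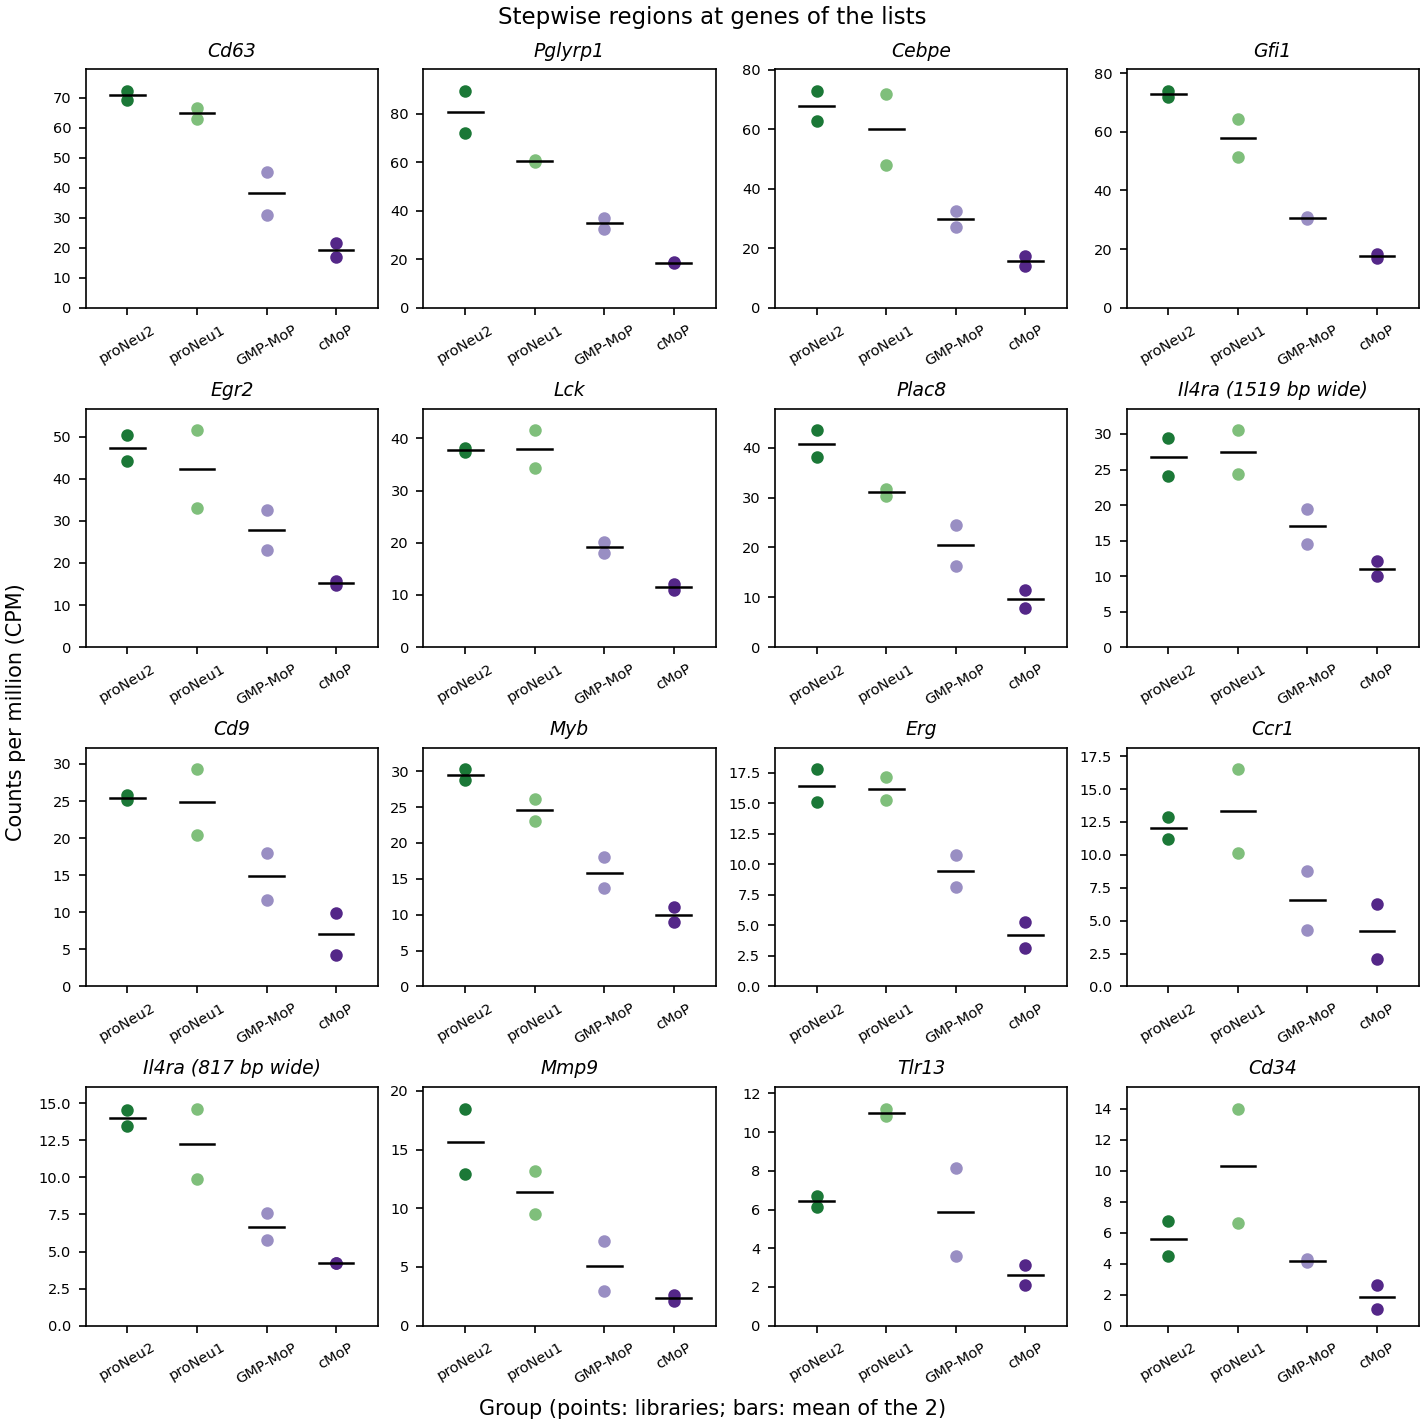
CPM (linear axes from 0) in each library, as points, with bars at the mean of the 2, for the 16 members linked to listed genes, in order of proNeu1 level. In 15 of the 16 panels both proNeu2 points lie above both GMP-MoP points, the exception being Tlr13. The same held at 391 of all 435 members and at 24.2% of all regions.

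Among 74 regions at later granule genes, 4 (5.41%) were members, at Cd63, Pglyrp1, Cebpe and Mmp9, against 0.711% of all regions. Among regions of at least 10 CPM in proNeu1, the level a member needs, the share was 1.82%. The 74 were not matched to either set by level, and the list was chosen with earlier results of these data known. Cd63 encodes a tetraspanin of granule and lysosome membranes, and its member in the gene body (chr10:128909326-128911087) had 72.2 and 69.3 CPM in proNeu2, 66.6 and 63.0 in proNeu1, 45.4 and 30.9 in GMP-MoP, and 21.5 and 16.9 in cMoP. The GMP-MoP libraries differed from each other, yet both lay between the other groups. Its log2 change of proNeu2 over GMP-MoP was 1.05 (SE 0.185, edgeR adjusted p = 9.07e-07).

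Pglyrp1 encodes a peptidoglycan-binding protein of neutrophil granules, and its only linked region, over the gene start (chr7:18884024-18885567), was a member. It had 72.2 and 89.5 CPM in proNeu2, 60.0 and 61.1 in proNeu1, 32.4 and 37.3 in GMP-MoP, and 18.3 and 19 in cMoP, with proNeu2 over GMP-MoP at a log2 of 1.33 (SE 0.182, edgeR adjusted p = 2.67e-10). The member near Mmp9, the gelatinase B gene, lay just outside the gene (chr2:164938670-164939178) and was low: 18.5 and 12.9 CPM in proNeu2, 13.2 and 9.54 in proNeu1, 7.20 and 2.91 in GMP-MoP, and 2.62 and 2.11 in cMoP. The proNeu2 and proNeu1 libraries overlapped there, and proNeu2 over GMP-MoP had a log2 of 1.82 (SE 0.409, edgeR adjusted p = 0.000121). Among the 62 tested regions of the later granule list that were no members, 27 (43.5%) rose and 8 (12.9%) fell in proNeu1 relative to cMoP by edgeR's adjusted p, against 20.6% and 21.9% of all tested regions. Regions at housekeeping genes also leaned upwards, with 11 (34.4%) of 32 tested rising and 2 (6.25%) falling.

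Granulocyte factor genes had 3 members among 241 regions. Cebpe, whose protein C/EBP epsilon drives late granule genes and which stands on both lists, had its member at the gene (chr14:54711747-54713483). It had 62.7 and 73.0 CPM in proNeu2, 48.2 and 71.9 in proNeu1, 27.4 and 32.6 in GMP-MoP, and 14.2 and 17.4 in cMoP. The spread between the proNeu1 libraries was the widest of the groups, and proNeu2 over GMP-MoP had a log2 of 1.29 (SE 0.195, edgeR adjusted p = 9.95e-09).

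The member near Gfi1, a repressor that favours granulocytes over monocytes, lay 16834 bp from the gene (chr5:107698458-107699821). It had 73.9 and 71.7 CPM in proNeu2, 51.5 and 64.2 in proNeu1, 30.2 and 30.9 in GMP-MoP, and 18.3 and 16.9 in cMoP. No groups overlapped, and proNeu2 over GMP-MoP had a log2 of 1.38 (SE 0.191, edgeR adjusted p = 3.8e-10). In the body of Myb, a factor of proliferating progenitors, the member (chr10:21146189-21147292) had 30.2 and 28.8 CPM in proNeu2, 23.1 and 26.1 in proNeu1, 13.7 and 18.1 in GMP-MoP, and 8.91 and 11.1 in cMoP. Its log2 change of proNeu2 over GMP-MoP was 1.01 (SE 0.263, edgeR adjusted p = 0.000988), while DESeq2 gave 0.0567. Of the list's 199 tested regions that were no members, 41 (20.6%) rose in proNeu1 relative to cMoP by edgeR's adjusted p, the same share as over all tested regions, and 31 (15.6%) fell, against 21.9%.

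Plac8, a gene of myeloid cells listed with the primary granule genes, had the only member among the 58 regions of that list, 2230 bp outside the gene (chr5:100574483-100575508). It had 38.1 and 43.5 CPM in proNeu2, 30.3 and 31.8 in proNeu1, 24.5 and 16.3 in GMP-MoP, and 11.5 and 7.91 in cMoP, with proNeu2 over GMP-MoP at a log2 of 1.15 (SE 0.235, edgeR adjusted p = 2.16e-05). No member was linked to Mpo, Elane, Prtn3 or Ctsg, the genes of the main primary granule enzymes. Of the 48 tested regions of that list that were no members, 17 (35.4%) rose and 7 (14.6%) fell in proNeu1 relative to cMoP by edgeR's adjusted p, against 20.6% and 21.9% of all tested regions. Of 32 tested regions at housekeeping genes, 11 (34.4%) rose and 2 (6.25%) fell, so the lean was not particular to primary granule genes.

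Among 161 regions at monocyte factor genes, 1 was a member, 30086 bp from Egr2, which encodes an early growth response factor of macrophages (chr10:67503092-67504383). It had 44.2 and 50.3 CPM in proNeu2, 33.0 and 51.5 in proNeu1, 23.0 and 32.6 in GMP-MoP, and 15.7 and 14.8 in cMoP. The lower proNeu1 library was close to the higher GMP-MoP one, and proNeu2 over GMP-MoP had a log2 of 0.87 (SE 0.212, edgeR adjusted p = 0.000401). Of the list's 132 tested regions that were no members, 25 (18.9%) rose in proNeu1 relative to cMoP by edgeR's adjusted p, near the 20.6% over all tested regions, and 51 (38.6%) fell, against 21.9%. Of 148 regions at monocyte and macrophage genes, 1 was a member. Among that list's 122 tested regions that were no members, 16 (13.1%) rose and 45 (36.9%) fell in proNeu1 relative to cMoP by edgeR's adjusted p. The member lay 29199 bp from Cd9, a tetraspanin gene. It had 25.2 and 25.7 CPM in proNeu2, 20.4 and 29.3 in proNeu1, 18 and 11.7 in GMP-MoP, and 9.96 and 4.22 in cMoP, with an edgeR adjusted p of 0.00453 for proNeu2 over GMP-MoP, and 0.186 without GMP-MoP replicate 2.

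Receptor genes had 3 members among 197 regions. A pair of them lay 1761 bp apart near Il4ra, the alpha chain of the interleukin-4 receptor, at 9115 and 12395 bp from the gene. The nearer (chr7:125541638-125543156) had 24.1 and 29.4 CPM in proNeu2, 24.4 and 30.5 in proNeu1, 19.4 and 14.6 in GMP-MoP, and 9.96 and 12.1 in cMoP. The further (chr7:125539060-125539876) had 14.6 and 13.5 CPM in proNeu2, 9.89 and 14.6 in proNeu1, 5.76 and 7.58 in GMP-MoP, and 4.19 and 4.22 in cMoP. Neither proNeu group stood above the other at these regions, and the edgeR adjusted p for proNeu2 over GMP-MoP was 0.0112 at the nearer and 0.00932 at the further. The call at the nearer was lost without GMP-MoP replicate 2 (0.208) or proNeu2 replicate 2 (0.116), and that at the further without GMP-MoP replicate 1 (0.0559) or proNeu2 replicate 1 (0.0648). Near Ccr1, a chemokine receptor gene of myeloid cells, the member had 11.2 and 12.9 CPM in proNeu2, 16.5 and 10.2 in proNeu1, 4.32 and 8.74 in GMP-MoP, and 6.29 and 2.11 in cMoP. GMP-MoP and cMoP overlapped there, the only such case among the 16. Its edgeR adjusted p for proNeu2 over GMP-MoP was 0.0474, and the call was lost without proNeu2 replicate 1 (0.0876), proNeu2 replicate 2 (0.166) or GMP-MoP replicate 1 (0.278).

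At 2 listed members proNeu2 was not called over GMP-MoP. The region in Tlr13, whose receptor senses bacterial ribosomal RNA, had 6.72 and 6.13 CPM in proNeu2, 11.2 and 10.8 in proNeu1, 3.6 and 8.16 in GMP-MoP, and 3.14 and 2.11 in cMoP (edgeR adjusted p = 0.755). The region 27616 bp from Cd34, a surface marker of stem and progenitor cells, had 4.48 and 6.74 CPM in proNeu2, 6.60 and 14.0 in proNeu1, 4.32 and 4.08 in GMP-MoP, and 1.05 and 2.64 in cMoP (edgeR adjusted p = 0.456). In both, the proNeu2 mean was below the proNeu1 mean. Of the 9 tested regions linked to Cd34, only the member was called higher in proNeu1 than in cMoP by edgeR's adjusted p, and 3 were called lower. Of the stem and early progenitor list's 155 tested regions that were no members, 25 (16.1%) rose and 36 (23.2%) fell in proNeu1 relative to cMoP. Over all tested regions 20.6% rose and 21.9% fell. The other stem cell list member, in the body of Erg, a stem cell ETS factor, had 15.1 and 17.8 CPM in proNeu2, 17.2 and 15.3 in proNeu1, 10.8 and 8.16 in GMP-MoP, and 3.14 and 5.27 in cMoP. Its edgeR adjusted p for proNeu2 over GMP-MoP was 0.0218, and the call was lost without proNeu2 replicate 2 (0.125) or GMP-MoP replicate 2 (0.227).

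The T and NK cell list had 1 member, in the body of Lck, a T cell kinase gene (chr4:129555250-129557153), with 38.1 and 37.4 CPM in proNeu2, 41.6 and 34.4 in proNeu1, 20.2 and 18.1 in GMP-MoP, and 11 and 12.1 in cMoP. Over all 56 regions of that list the summed level was 441 to 442 CPM in proNeu2, 435 to 438 in proNeu1, 460 to 467 in GMP-MoP and 521 to 538 in cMoP, so the list as a whole ran the other way from its member. A part of other cell types in the members' values was not tested.

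Loci with several members were read over their other linked regions, since the direction of the members was set by the selection. Over the 13 genes with 2 or more members, 67 tested regions were no members. Relative to cMoP, 16 of these (23.9%) rose and 18 (26.9%) fell in proNeu1 by edgeR's adjusted p, near the 20.6% and 21.9% of all tested regions. At Tnrc6b, 4 of 5 such regions were higher and 0 lower, and at Trib1, whose pseudokinase targets the C/EBP alpha protein for degradation, 3 of 3 were higher. Near Usp7 and Il4ra the counts were mixed, with 1 of 5 higher and 1 lower at Usp7 and 1 of 7 higher and 2 lower at Il4ra. At Sgms2, 0 of 13 were higher and 6 lower, at Dock5 2 of 16 were higher and 5 lower, and at Ncam1 0 of 2 were higher and 1 lower.

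The 4 members at Tnrc6b had proNeu2 means of 13.8 to 26.9 CPM, proNeu1 means of 10.3 to 29.2, GMP-MoP means of 4.27 to 17.5 and cMoP means of 2.10 to 11.6. The 2 members at Trib1, in the gene (chr15:59652551-59653428) and 21790 bp away (chr15:59678889-59679734), had proNeu2 means of 34.3 and 12.1 CPM, proNeu1 means of 31.7 and 13.9, GMP-MoP means of 18.1 and 8.04, and cMoP means of 10.2 and 4.47. The 3 members near Usp7 lay 21477 to 27372 bp from the gene with proNeu2 means of 11.2 to 31.2 CPM, proNeu1 means of 11 to 29.4, GMP-MoP means of 7.05 to 14.7 and cMoP means of 3.42 to 8.41.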

How the data were processed

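The deposited files hold the authors' whole-number count for each of 61196 regions in each of 8 libraries, in mm10 coordinates. The submitters' processing notes name Bowtie2 2.3.5.1, HOMER 4.11 and edgeR 3.32.1 without a role. Tn5 shifting, duplicate removal, counting and pooling before region calling were not stated. Whether such steps weigh differently on members and other regions was not tested, and totals cover the counted regions only.

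CPM was each count divided by its library total, times 1000000, and group means were taken over 2 libraries. Members were selected by the thresholds given in the report. The members and gene lists were chosen with earlier results of these data known. Named regions were the 10 members of highest proNeu1 mean, up to 4 members of highest level in each list, and the 6 genes with the most members, besides those said to be chosen after their values were seen. The rule's class of members called between proNeu2 and proNeu1 was empty.

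The test was edgeR 4.0.16 under R 4.3.3, after TMM scaling and a low-count filter (filterByExpr, minimum count 10; 47506 regions, all 435 members among them), as a robust quasi-likelihood fit of all 8 libraries with 1 mean per group. Calls had a Benjamini-Hochberg adjusted p under 0.05 over all tested regions. A standard error (SE) is the log2 change over the square root of its F statistic. Alternatives used DESeq2 1.42.0, limma 3.58.1 loess offsets, other scalings and filters, a replicate block and each library left out. Held-out readings and intervals are exact descriptions of counts, the intervals being exact binomial ones at 95%. Links went to the nearest protein-coding gene interval of RefSeq GRCm38.p6 within 50 kb. Motifs were searched in RefSeq promoter windows only, since sequence inside other regions was not used here. The libraries of proNeu2 differed by little more than sampling noise (chi-square per degree of freedom 1.01, against 1.30 to 1.38 in the other groups) and were kept as 2 because the labels call them replicates.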

Additional observations from a re-analysis of the deposited data

How the results depend on the processing

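Members called higher in proNeu2 than in GMP-MoP were 147 with DESeq2 and 250 to 346 without each library in turn. Those higher than in cMoP were 406 to 425, and calls between proNeu2 and proNeu1 stayed at 0 in both directions in every setting run. For proNeu1 over GMP-MoP the count of 288 was 164 at 2-fold or more, 187 with total counts, 27 with DESeq2 and 116 to 279 without each library. The low end came without GMP-MoP replicate 2, and 147 and 173 without proNeu1 replicates 2 and 1. For GMP-MoP over cMoP the count of 42 was 23 at 2-fold or more, 1 with DESeq2 and 10 to 53 without each library, with 10 without cMoP replicate 2. For proNeu1 over cMoP it was 408 to 435. With 161 members at a minimum of 20 CPM and 1802 in a wider ratio window, the number of members depends on the thresholds, and it ran from 342 to 523 without each library. CPM scaled with TMM factors gave 506 regions, 369 of them shared, which is 72.9% of those and 84.8% of the members. The median log2 of proNeu2 over proNeu1 was 0.0188 with replicate 1 alone, -0.0272 with replicate 2 alone and -0.0437 to 0.139 without each library, reversing without proNeu1 replicate 1. The cause was not tested. The share in stepwise order in the unused replicate was 75.9% and 75.1% at 20 CPM, and 62.2% and 58.5% in the wider window, for regions chosen on replicates 1 and 2. With a replicate block, 344 members and 9302 of 47506 tested regions were called for proNeu2 over GMP-MoP. For proNeu2 over cMoP these were 425 and 12202, and for proNeu1 over GMP-MoP 292 and 6179. For proNeu1 over cMoP they were 435 and 10010, and for GMP-MoP over cMoP 48 and 1004. Without the block, the tested regions called were 9125, 11991, 5915, 9773 and 941 in that order. Between proNeu2 and proNeu1, the block called 0 members. At 2-fold or more, 2280 tested regions were called for proNeu1 over GMP-MoP and 775 for GMP-MoP over cMoP. Total counts gave 4060 and DESeq2 1072 for proNeu1 over GMP-MoP. Calls over all tested regions thus also fell in these settings. Same-numbered libraries deviated together at correlations of -0.0116 to 0.0776. At this depth counting noise can hide a shared animal or batch, so these values do not settle whether the numbers pair libraries. Depth limits single members, with a median of 10 counts per cMoP library.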
